A study of Homo sapiens with 36 samples.

Results

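The 9 genes described here encode proteins that bind or cut cytokine mRNAs, and they were taken by symbol from the 57500 genes of each count file: ZFP36, ZFP36L1, ZFP36L2, ZC3H12A, ZC3H12C, RC3H1, RC3H2, ELAVL1 and KHSRP. All 9 passed the filter on low counts, which kept 17720 genes. THP-1, a human monocytic leukaemia line, was studied as 3 lines that stably carry a short hairpin RNA: shNT (non-targeting), shNR4A2 and shNR4A3, the latter pair directed at the orphan nuclear receptors NR4A2 and NR4A3. Each line was kept for 4 h in buffered medium at 5% or 10% CO2 and was left without LPS (basal) or given LPS at 2.5 µg/ml for the final 2 h, with 3 libraries in each of the 12 conditions. The comparisons address how the decay factor mRNAs responded to LPS and to buffered hypercapnia (10% CO2), and whether either response differed in cells depleted of NR4A2 or NR4A3. The shNT line is the reference throughout, so all libraries carry a hairpin construct and none is from unmodified THP-1 cells.

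Many cytokine mRNAs are short-lived because their 3′ ends hold AU-rich elements or stem-loops that recruit decay factors. ZFP36 (tristetraprolin) and its relatives ZFP36L1 and ZFP36L2 bind AU-rich elements through tandem zinc fingers and bring the CCR4-NOT deadenylase complex to the transcript. ZC3H12A (Regnase-1) and ZC3H12C (Regnase-3) are endoribonucleases, and Regnase-1 cleaves stem-loops in mRNAs such as IL6. RC3H1 (Roquin-1) and RC3H2 (Roquin-2) bind related stem-loops, KHSRP promotes decay of AU-rich mRNAs, and ELAVL1 (HuR) binds the same class of element and generally stabilises the transcript. In monocytes and macrophages several of these factors are themselves induced by inflammatory signals and limit the output of TNF, IL6 and other cytokines.

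Assigned counts per library ran from 16171161 to 23929138 with a median of 19639071, and the rarest member count in any library was 150 (ZC3H12C). In every library the monocyte genes SPI1 (467 to 1132 TPM, which corrects for transcript length) and LYZ (131 to 1058 TPM) were expressed. CD68 (2.229 to 6.465 TPM) and MPO (1.796 to 6.426 TPM), also on the monocyte and THP-1 list, were low. CD3E, EPCAM and HBB stayed under 1 TPM, while the T cell gene CD3D reached 1.57 TPM and the B cell gene CD79A 3.48 TPM. As a check of the labels, NR4A2 fell in shNR4A2 cells in all 4 conditions, to between 0.315 and 0.531 of the shNT level. NR4A3 fell in shNR4A3 cells in 3 of 4 conditions, while at 10% CO2 without LPS the difference was -0.39 ± 0.49 (SE, adjusted p = 0.736) on the log2 scale and the libraries overlapped. The study describes its replicates as individual experiments on the same stable lines, so p-values measure the spread between these experiments.

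The AU-rich heptamer TATTTAT, the DNA spelling of a core motif that ZFP36 proteins bind, was searched on the transcribed strand of the annotated 3′ tails of GENCODE v44 canonical transcripts (GRCh38), with overlapping matches counted separately. It occurred in 7 of the 9 members, all but ZC3H12A and KHSRP, and in 18 of 22 target mRNAs on the list used below, against 34.8% of the 13801 tested coding genes. Tail length bears on these numbers: among tested tails within 10% of the length of the RC3H1 tail (7637 bases) 78.6% held the motif, and for ZFP36 (708 bases, 3 matches) the share was 23.0%. The windows of 30 bases with the most matches are shown for 3 target mRNAs. As examples they are also shown for 4 members: 2 of the ZFP36 family, ZC3H12C and ELAVL1. The share of tested tails of like length with the motif was 74% for ZC3H12C (6104 bases), 70.9% for ELAVL1 (4910 bases) and 41.7% for ZFP36L2 (1917 bases). Letters are 5′ to 3′ on the transcript strand, and capitals mark TATTTAT.
TNF: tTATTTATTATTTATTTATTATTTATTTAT
IL1B: cgcttcccTATTTATTTATTTATttgtttg
CXCL8: aaccTATTTATTATTTATgTATTTATttaa
ZFP36: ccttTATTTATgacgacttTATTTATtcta
ZFP36L2: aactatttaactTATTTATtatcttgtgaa
ZC3H12C: tgctataatcatTATTTATagaaacaaagt
ELAVL1: tTATTTATaccTATTTATgTATTTATTTAT
These windows lie at chr6:31578000-31578029 on the plus strand (TNF), chr2:112829995-112830024 on the minus strand (IL1B), chr4:73743109-73743138 on the plus strand (CXCL8), chr19:39409188-39409217 on the plus strand (ZFP36), chr2:43223448-43223477 on the minus strand (ZFP36L2), chr11:110166245-110166274 on the plus strand (ZC3H12C) and chr19:7961839-7961868 on the minus strand (ELAVL1). The TNF window holds 5 matches in an unbroken run, the ELAVL1 window holds 4, of which the last pair overlaps, and the ZFP36 window holds 2 separate ones. No match was found in the 766 bases of the ZC3H12A tail or the 1922 bases of the KHSRP tail; 23.9% and 41.9% of tested tails of like length held one.

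Compared per length in TPM, the order of the members was nearly the same in every basal condition. In basal shNT cells at 5% CO2, ZFP36L2 stood highest at 506 ± 34.9 TPM (SD, n = 3), followed by KHSRP at 431 ± 11.3, ZFP36 at 159.8 ± 12.9 and ELAVL1 at 64.9 ± 4.53, with no overlap of libraries between neighbours in that order. RC3H2 at 17.0 ± 3.29, ZC3H12A at 15.9 ± 2.51 and RC3H1 at 14.2 ± 4.33 overlapped, ZFP36L1 (9.01 ± 2.75) overlapped RC3H1, and ZC3H12C was lowest at 5.95 ± 0.911. After LPS at 5% CO2, ZC3H12A led the 9 at 570.2 ± 19.7 TPM, above KHSRP (392 ± 24.9), ZFP36 (255 ± 36.8) and ZFP36L2 (137 ± 16.9). ZC3H12A was first, before KHSRP, ZFP36 and ZFP36L2, in all 6 LPS conditions, while ZFP36L2 was first in all 6 basal conditions; at 10% CO2 its basal libraries overlapped those of KHSRP in shNT and shNR4A2 cells. TPM divides by all RNA of a library, and LPS adds abundant transcripts, so changes within a gene are given below as CPM, counts per library size scaled by the trimmed mean of M-values (normalised CPM).

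**Figure D1:**
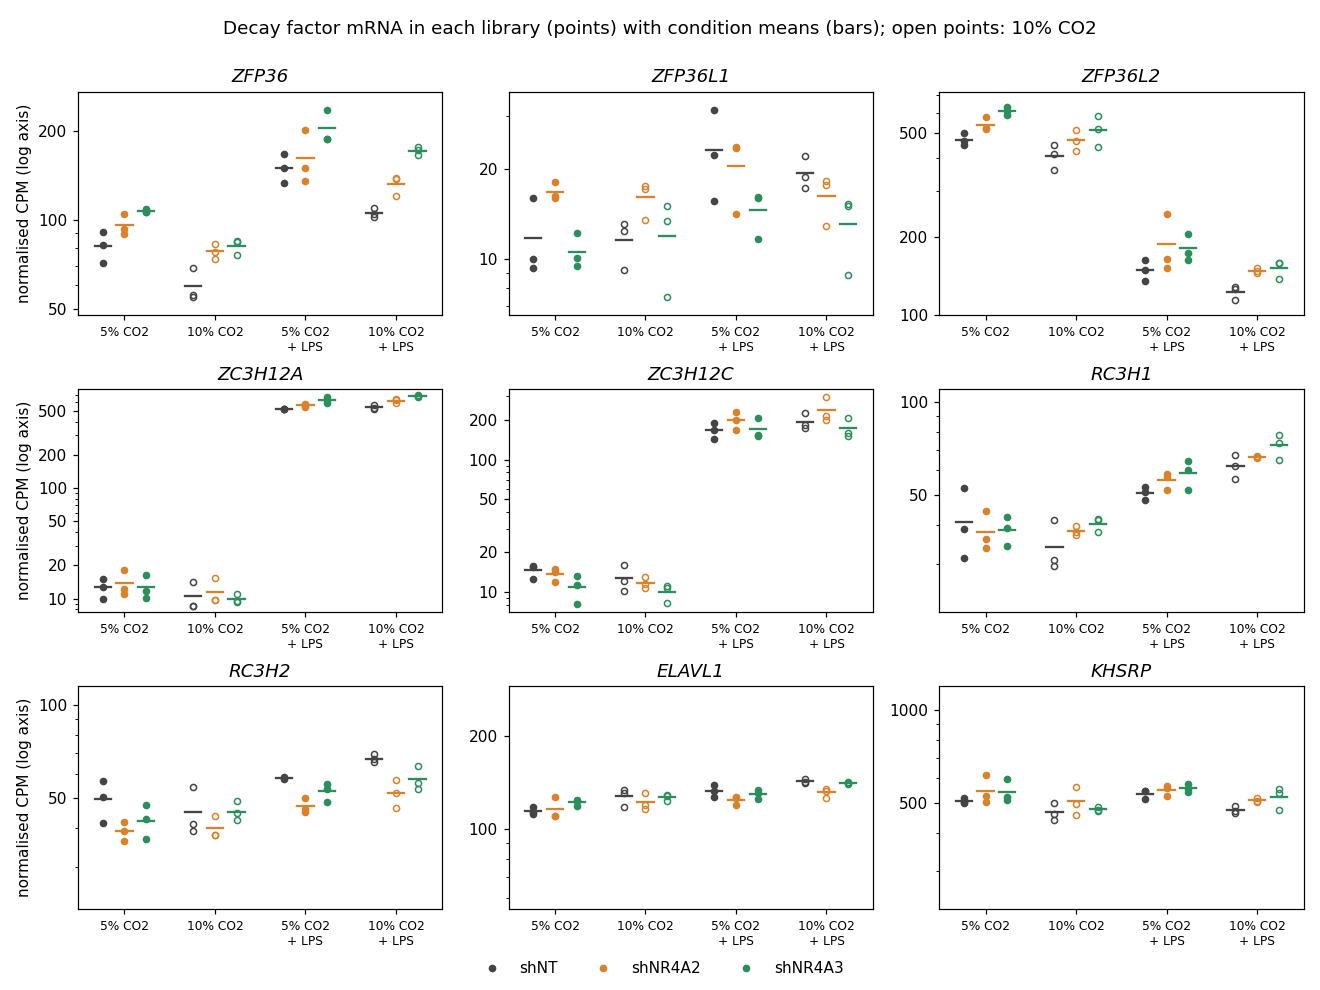
Normalised CPM of the 9 members in each of the 36 libraries (points, open at 10% CO2) with condition means (bars), coloured by line, on log axes that differ between panels. ZC3H12A and ZC3H12C separate into low basal and high LPS values, ZFP36L2 goes the other way, ZFP36 is lower at 10% than at 5% CO2, and ELAVL1 and KHSRP stay within narrow ranges.

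With LPS, ZC3H12A and ZC3H12C rose, ZFP36 rose less and ZFP36L2 fell in each line at each CO2 level. At an adjusted p under 0.05, 4 of the 9 members changed in shNT cells at 5% CO2, where 22.9% of all tested genes did, and 7 of 9 changed at 10% CO2, where 31.2% did. In shNR4A2 cells 5 of 9 changed at 5% CO2 (18.2% of all genes) and 6 of 9 at 10% CO2 (35%). In shNR4A3 cells 5 of 9 changed at 5% CO2 (25.3%) and 7 of 9 at 10% CO2 (42.1%). ZFP36L2 was the only member with a significant fall in any of these 6 comparisons. In bulk libraries a response of more cells and a larger response per cell cannot be told apart.

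ZC3H12A (chr1:37474552-37484379, plus strand), the endonuclease Regnase-1, had the largest response of the 9. Its normalised CPM in basal shNT cells at 5% CO2 was 12.9, 15.0 and 10.0, and with LPS it was 519, 526 and 524. At 10% CO2 the same line gave 8.66, 8.66 and 14.2 without LPS and 535, 562 and 526 with it. Every LPS library exceeded every basal library by a wide margin, and the LPS values scattered little. The log2 fold change was 5.38 ± 0.13 (SE, adjusted p = 2.59e-14) at 5% CO2, a 41.7-fold rise, and 5.69 ± 0.17 at 10% CO2. In shNR4A2 cells ZC3H12A went from 12.2, 18.2 and 10.9 to 575, 563 and 548 at 5% CO2 and from 9.66, 15.4 and 9.77 to 639.9, 622 and 596 at 10% CO2. In shNR4A3 cells the values went from 11.7, 16.2 and 10.2 to 665, 586 and 632 and from 9.54, 10.98 and 9.36 to 691, 665 and 685. The largest of the 6 rises, 6.11 ± 0.09 on the log2 scale or 68.9-fold, was that of shNR4A3 cells at 10% CO2.

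ZC3H12C (chr11:110093361-110171841, plus strand), which encodes the related Regnase-3, started lower and rose less: in shNT cells at 5% CO2 its mean went from 5.95 to 58.2 TPM, against 15.9 to 570.2 TPM for ZC3H12A. In shNT cells it read 15.5, 12.6 and 15.7 normalised CPM at 5% CO2 without LPS and 188, 167 and 144 with LPS. The rise there was 3.51 ± 0.12 (SE, adjusted p = 2.28e-12) on the log2 scale, or 11.4-fold. At 10% CO2 the rise was 3.93 ± 0.15 in shNT, 4.34 ± 0.16 in shNR4A2 and 4.13 ± 0.15 in shNR4A3 cells. The highest single reading, 298, came from 1 shNR4A2 library at 10% CO2 with LPS, whose partners read 215 and 199. LPS and basal libraries of ZC3H12C did not overlap in any line or at either CO2 level.

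Of the ZFP36 family, ZFP36 (chr19:39406813-39409412, plus strand) rose and ZFP36L2 (chr2:43222402-43226609, minus strand) fell. In basal shNT cells at 5% CO2 ZFP36 read 82.0, 91.3 and 71.5 normalised CPM, and with LPS it read 151, 168 and 134. The corresponding values at 10% CO2 were 55.7, 54.5 and 68.4 and 102, 110.2 and 105. LPS libraries lay above basal ones in each case, with log2 fold changes of 0.89 ± 0.10 (SE, adjusted p = 8.18e-06) and 0.84 ± 0.10 (SE, adjusted p = 8.5e-06). The rise was 0.76 ± 0.15 and 0.77 ± 0.10 in shNR4A2 cells at 5% and 10% CO2, and 0.93 ± 0.10 and 1.09 ± 0.07 in shNR4A3 cells, so it stayed between 1.69- and 2.14-fold.

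ZFP36L2, the most abundant member before LPS, read 499.5, 452 and 467 normalised CPM in basal shNT cells at 5% CO2 and 148, 163 and 135 with LPS. At 10% CO2 it read 450.2, 363 and 417 and 127, 126 and 114. Each LPS library was under each basal library, and the fall was 3.16-fold at 5% CO2 (log2 fold change -1.66 ± 0.09, adjusted p = 2.15e-10) and 3.32-fold at 10% CO2. In shNR4A2 cells ZFP36L2 went from 577, 522 and 517 to 165, 244 and 151 at 5% CO2, where 1 LPS library stood above its partners. In shNR4A3 cells it went from 629, 611 and 589.8 to 172, 205 and 162. The 6 log2 fold changes spanned only -1.76 ± 0.10 to -1.53 ± 0.16. An unnamed long non-coding RNA on the opposite strand shares 826 of the 3693 exonic bases of ZFP36L2 in GENCODE v44. The strand setting of the counting is not given in the sources used here. Whether reads from the 2 genes were kept apart there is thus not known.

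ZFP36L1 (chr14:68787660-68796253, minus strand), the least abundant of the family, behaved less regularly. In shNT cells at 5% CO2 it read 16.0, 9.36 and 9.98 normalised CPM without LPS and 31.5, 22.2 and 15.6 with LPS, ranges that just overlapped, and the log2 difference of 0.97 ± 0.31 (SE, adjusted p = 0.0672) did not pass. It passed without the first basal library (adjusted p = 0.0111) or the third LPS library (0.00479), without the filter (3.74e-06) and in the fit to all 36 libraries (0.00675). At 10% CO2 the values 13.1, 9.21 and 12.5 and 22.0, 17.2 and 18.7 did not overlap, a rise of 0.75 ± 0.15 (SE, adjusted p = 0.000865). In shNR4A2 cells the difference was 0.28 ± 0.19 (SE, adjusted p = 0.353) at 5% and 0.03 ± 0.15 at 10% CO2. In shNR4A3 cells it was 0.45 ± 0.16 (SE, adjusted p = 0.0597) at 5% CO2, and with the replicate number as a block, where same-numbered libraries deviated together, 0.45 ± 0.12, adjusted p = 0.0099. It also passed there without the first basal library (adjusted p = 0.0406) or the third LPS library (0.0235), without the filter (0.0319) and with RLE size factors (0.0493). At 10% CO2 the shNR4A3 difference was 0.16 ± 0.30, with overlapping libraries.

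The Roquin genes rose modestly. RC3H1 (chr1:173931214-174022297, minus strand) read 41.6, 29.4 and 30.8 normalised CPM in basal shNT cells at 10% CO2 and 67.4, 62.1 and 56.5 with LPS, without overlap. Its rise was 0.88 ± 0.13 (SE, adjusted p = 4.8e-05) there, 0.80 ± 0.09 in shNR4A2 and 0.86 ± 0.08 in shNR4A3 cells. At 5% CO2 RC3H1 rose in shNR4A2 cells (0.55 ± 0.14, adjusted p = 0.0102) and in shNR4A3 cells (0.61 ± 0.12, adjusted p = 0.00166). In shNT cells at 5% CO2 the difference was 0.32 ± 0.16 (SE, adjusted p = 0.185), and the basal libraries scattered widely (38.9, 31.4 and 52.5). Without the third of them, the highest, the adjusted p was 0.00346, and without the filter it was 0.0326.

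RC3H2 (chr9:122844556-122905341, minus strand) rose in all 3 lines at 10% CO2, by 0.59 ± 0.12 (SE, adjusted p = 0.00113) in shNT, 0.39 ± 0.11 (SE, adjusted p = 0.0111) in shNR4A2 and 0.37 ± 0.09 (SE, adjusted p = 0.00339) in shNR4A3 cells. The shNR4A2 call was lost without the third basal library (adjusted p = 0.0525). At 5% CO2 the RC3H2 differences of 0.24 ± 0.11, 0.27 ± 0.12 and 0.31 ± 0.11 in shNT, shNR4A2 and shNR4A3 cells did not pass. With the replicate block the shNR4A3 value at 5% CO2 passed (0.32 ± 0.09, adjusted p = 0.0168), as it did without the second basal (adjusted p = 0.0295) or second LPS library (0.0249), with RLE size factors (0.0438), without the filter (0.041) and in the fit to all 36 libraries (0.0335). In shNT cells it passed without the third basal library (adjusted p = 0.037). When libraries were scaled by total count alone, a setting that put the median log2 fold change of all genes in LPS comparisons between -0.18 and -0.25, the RC3H2 calls in shNR4A2 and shNR4A3 cells at 10% CO2 and the RC3H1 call in shNR4A2 cells at 5% CO2 were lost.

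ELAVL1 (chr19:7958579-8005659, minus strand) and KHSRP (chr19:6413348-6424794, minus strand) differed little between conditions. ELAVL1 stayed between 110.2 and 145 normalised CPM over all 36 libraries, and KHSRP between 442 and 613. ELAVL1 passed in 1 of 6 LPS comparisons, shNR4A3 cells at 10% CO2, where it read 127, 123 and 129 without and 141, 140.0 and 142 with LPS. That difference of 0.17 ± 0.06 (SE, adjusted p = 0.0318) lost its call when any 1 of the 6 libraries was left out (adjusted p 0.0593 to 0.131) and with DESeq2, and its sign turned with scaling by total count alone. In shNT cells at 5% CO2 the ELAVL1 difference was larger, 0.22 ± 0.08 (SE, adjusted p = 0.0556). It passed with RLE size factors (adjusted p = 0.0483) and in the fit to all 36 libraries (0.0159). KHSRP differences ran from 0.00 ± 0.12 to 0.15 ± 0.07. The latter passed with the replicate block (0.15 ± 0.04, adjusted p = 0.0042) and without the first LPS library (adjusted p = 0.0227). An unnamed antisense long non-coding RNA shares 528 exonic bases with ELAVL1.

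**Figure D2:**
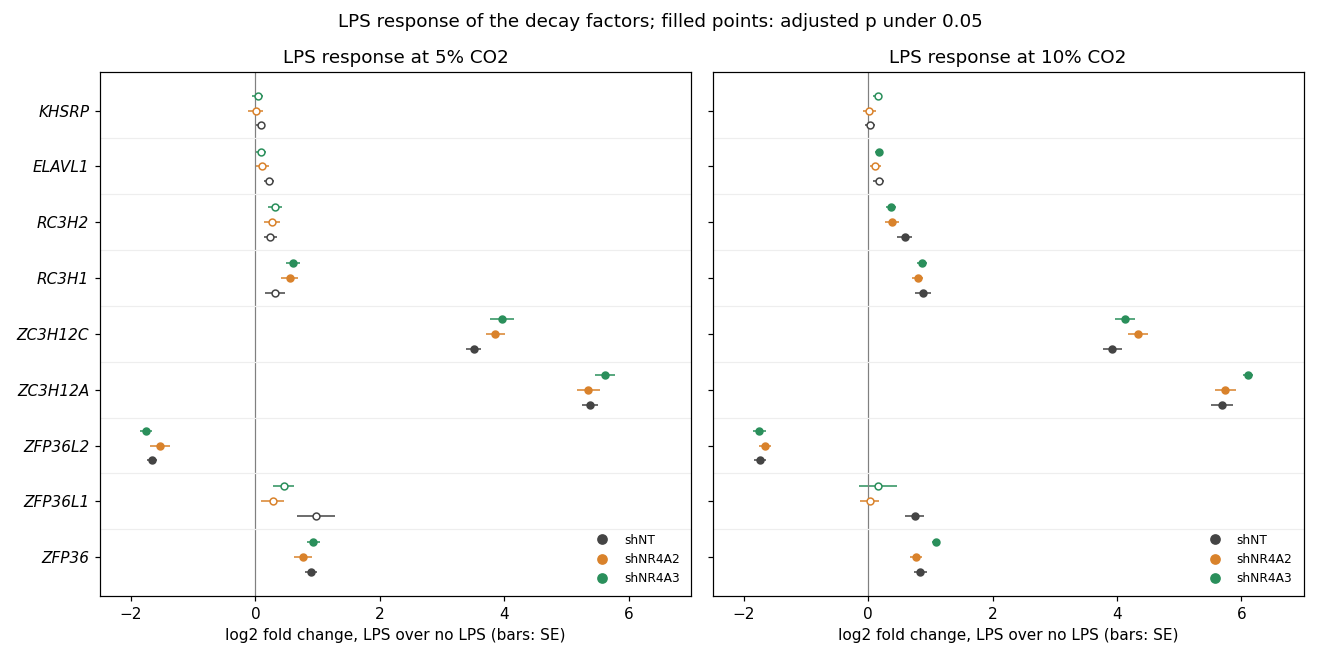
Log2 fold change with LPS (points, with SE bars) for each member and line at 5% (left) and 10% CO2 (right); filled points passed an adjusted p under 0.05. ZC3H12A and ZC3H12C stand far to the right, ZFP36L2 alone stands to the left, and the ZFP36L1 points of the 3 lines are spread, from 0.28 to 0.97 at 5% CO2.

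The LPS responses of the members did not differ significantly between lines. In the tests of the difference itself (line by LPS), 0 of 9 members passed in any of the 4 comparisons with shNT, where 0%, 0.0451%, 0% and 0.198% of all genes did. By edgeR at an unadjusted p under 0.05, 0, 1, 0 and 1 of the 9 fell under the threshold, as did 2.21%, 4.15%, 4.82% and 7.84% of all genes. The widest difference was that of ZFP36L1 in shNR4A2 against shNT cells at 10% CO2, -0.73 ± 0.22 (SE, adjusted p = 0.579). For ZC3H12A the shNR4A3 response at 10% CO2 was 0.41 ± 0.19 above that of shNT cells (adjusted p = 0.618). DESeq2 and the fit without the filter also gave no member in these 4 tests, but with the replicate block that ZFP36L1 difference passed (-0.74 ± 0.15, adjusted p = 0.0216), although same-numbered libraries did not all deviate together there.

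Most mRNAs listed as targets of these factors rose with LPS in every line. Of 22 listed targets, 20 were tested, and between 17 and 20 of them rose with LPS in each comparison and none fell. Of all tested genes 18.2% to 42.1% passed in these comparisons. The median log2 fold change was 7.45 in shNT cells at 5% CO2, or 6.91 with IL6, which had no count in the basal libraries, set at the bound from a floor of 3 counts over the group. Over all 17720 genes the median was -0.001. TNF went from 31.0, 31.7 and 20.9 to 1098, 1035 and 998 normalised CPM (5.24 ± 0.15 on the log2 scale), and IL1B from 21.8, 15.9 and 19.4 to 4507, 3252 and 3488 (7.63 ± 0.18). CXCL8, the chemokine interleukin-8, rose by 7.75 ± 0.33, PTGS2, the inducible cyclooxygenase, by 6.12 ± 0.21, and NFKBIZ, a nuclear regulator of NF-κB, by 7.41 ± 0.11. IL6 stayed rare at 2.21, 0.77 and 1.41 normalised CPM with LPS, from 0 counts in all 3 basal libraries.

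Most genes of the general decay machinery did not pass with LPS in shNT cells. In shNT cells at 5% CO2, of 18 deadenylase genes and adaptors 3 rose and 3 fell, of 15 decapping and 5′-to-3′ decay genes 2 rose and 1 fell, and of 15 exosome and SKI genes 1 rose and 0 fell. At 10% CO2 the counts were 5 rose and 3 fell, 3 rose and 1 fell, and 2 rose and 1 fell, with list medians of 0.05, 0.15 and 0.06. Of all tested genes 22.9% passed in shNT cells at 5% CO2 and 31.2% at 10% CO2. In shNR4A3 cells at 10% CO2 more of the listed genes passed than not for deadenylases (7 rose and 3 fell of 18) and decapping (5 rose and 3 fell of 15), and 2 rose and 2 fell of 15 exosome and SKI genes. In that comparison 42.1% of all tested genes passed. In the other 3 comparisons 4 to 8, 3 to 5 and 0 to 4 genes of these lists passed, where 18.2% to 35% of all genes did. The genes that moved most were BTG2 and BTG1, antiproliferative adaptors of the CCR4-NOT deadenylases, which rose by 5.58 ± 0.11 and 1.31 ± 0.10 at 5% CO2, and the decapping cofactor gene DCP1B, which fell by 1.06 ± 0.22 on the log2 scale. Of 19 tested genes for other AU-rich element and stem-loop binding proteins 5 rose and 1 fell at 5% CO2 and 8 rose and 0 fell at 10% CO2, led by ARID5A (1.04 ± 0.23), which binds and stabilises IL6 mRNA, and the polyadenylation element binding genes CPEB4 (0.74 ± 0.10) and CPEB2 (0.65 ± 0.13). Of 20 regulators and partners of the members 5 rose and 5 fell at 5% CO2 and 5 rose and 4 fell at 10% CO2. The largest rises among them were those of DUSP1 (3.23 ± 0.26), the phosphatase that turns off p38 MAPK, and TNIP1 (2.13 ± 0.12), an adaptor in NF-κB signalling.

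Buffered hypercapnia lowered ZFP36 and ZFP36L2 and, with LPS, was accompanied by slightly higher RC3H1, RC3H2, ZC3H12A and ELAVL1 and slightly lower KHSRP. The averaged changes that passed were 0.10 to 0.37 in size on the log2 scale, and most were called only in the fit that averaged the response over the 3 lines. Averaged over lines without LPS, 2 of 9 members passed, where 17.9% of all genes did. With LPS 7 of 9 passed, where 30.8% did. In single lines, members passed in 2 of 6 comparisons, 1 member each: shNT cells with LPS (8.19% of all genes) and basal shNR4A3 cells (1.13%). No member passed in basal shNT cells (0.615%), in shNR4A2 cells without (0.0113%) or with LPS (0.198%), or in shNR4A3 cells with LPS (2.13%). By edgeR at an unadjusted p under 0.05, 1, 1, 1 and 3 of the 9 fell under the threshold in those 4 comparisons, as did 14.9%, 8.07%, 16.3% and 19.1% of all genes.

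The mean level of ZFP36 was lower at 10% CO2 in each line, with and without LPS, though not every difference passed. In the libraries given above for shNT cells, the 10% CO2 values lay under the 5% CO2 values in both states. With LPS the difference was -0.50 ± 0.09 (SE, adjusted p = 0.00632) on the log2 scale, 1.42-fold lower, and it kept its call when any 1 of the 6 libraries was left out. Without LPS it was -0.45 ± 0.12 (SE, adjusted p = 0.106), and passed with DESeq2 (adjusted p = 0.0266), in the fit to all 36 libraries (0.0365), without the filter (0.0204) and without the third 10% CO2 library (0.0382).

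In shNR4A2 cells ZFP36 read 93.2, 105 and 89.5 at 5% CO2 and 78.0, 83.2 and 73.7 at 10% CO2 without LPS, and 150.4, 203 and 135 against 121, 139 and 138 with LPS. The basal values did not overlap; the LPS values did. The basal difference was -0.29 ± 0.11 (SE, adjusted p = 0.515), and with the replicate block, used where same-numbered libraries deviated together, it passed (-0.29 ± 0.07, adjusted p = 0.0442). The LPS difference was -0.30 ± 0.14 (SE, adjusted p = 0.32). In shNR4A3 cells ZFP36 read 106, 109 and 107 against 84.2, 75.9 and 84.7 without LPS and 188, 237 and 188 against 166, 173 and 177 with LPS, with no overlap in either state. The basal fall of -0.38 ± 0.08 (SE, adjusted p = 0.0283) lost its call without the second 5% CO2 library (adjusted p = 0.0666) or without 10% CO2 replicate 1 (0.0647), 2 (0.241) or 3 (0.0578), and in the fit to all 36 libraries. The LPS difference was -0.25 ± 0.10 (SE, adjusted p = 0.193).

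Averaged over the 3 lines, ZFP36 fell by 0.37 ± 0.06 on the log2 scale without LPS (adjusted p = 9.87e-05) and by 0.35 ± 0.07 with LPS (adjusted p = 0.00111). Both calls were kept when any 1 of the 18 libraries was left out. The 10% CO2 libraries lay entirely under the 5% CO2 libraries in 5 of the 6 combinations of line and LPS, the exception being shNR4A2 cells with LPS. For all genes, the share whose libraries did not overlap in these 6 comparisons was 19.9%, 13.8% and 22.2% without LPS in shNT, shNR4A2 and shNR4A3 cells and 29.9%, 21.4% and 25.1% with LPS. The ZFP36 response differed between the LPS and basal states by 0.03 ± 0.09 (SE, adjusted p = 0.953).

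ZFP36L2 was lower at 10% CO2 in the same 5 of 6 combinations without overlap, and the shares of all genes are those given for ZFP36. Most of these separations were narrow. Without LPS, the lowest 5% and highest 10% CO2 libraries read 452.3 and 450.2 in shNT cells. They read 517.3 and 512.6 in shNR4A2 and 589.8 and 585.4 in shNR4A3 cells. With LPS they read 162.0 and 158.8 in shNR4A3 and 135.1 and 127.3 in shNT cells. In basal shNR4A3 cells, for example, ZFP36L2 read 629, 611 and 589.8 at 5% and 585, 442 and 519 at 10% CO2. With LPS the shNR4A2 values were 165, 244 and 151 and 144, 148 and 151, which overlapped. The averaged fall was 0.21 ± 0.05 (adjusted p = 0.00829) without and 0.28 ± 0.07 (adjusted p = 0.00623) with LPS, and both were kept when any 1 library was left out. In shNT cells with LPS the difference of -0.27 ± 0.08 (SE, adjusted p = 0.054) passed with DESeq2 (adjusted p = 0.0342), with library size only (0.0339), without the filter (0.0244) and without the third 5% CO2 library (0.0221); without the filter the shNR4A2 difference also passed (0.0323). ZFP36L1 did not pass in any CO2 comparison, and its averaged difference was 0.03 ± 0.12 without and -0.24 ± 0.15 with LPS.

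RC3H1 was higher at 10% CO2 in the presence of LPS. It read 48.0, 51.3 and 52.9 at 5% and 67.4, 62.1 and 56.5 at 10% CO2 in shNT cells. The corresponding values were 52.0, 58.5 and 57.3 and 65.6, 66.8 and 66.1 in shNR4A2 cells, and 60.4, 51.9 and 64.5 and 73.8, 78.3 and 65.1 in shNR4A3 cells. In each line the 10% CO2 libraries lay above the 5% CO2 ones, narrowly so in shNR4A3 cells (65.1 against 64.5). The averaged rise was 0.28 ± 0.05 (SE, adjusted p = 0.000258), kept when any 1 library was left out. In shNT cells alone the difference was 0.29 ± 0.09 (SE, adjusted p = 0.054), and it passed with DESeq2 (adjusted p = 0.0497), without the filter (0.0278) and without the third 5% CO2 library (0.0467). Without LPS the averaged difference was -0.06 ± 0.09 (adjusted p = 0.692). The test of the LPS state against the basal state, which was added after these values were seen, gave 0.34 ± 0.11 (SE, adjusted p = 0.0911) and 0 of 9 members passed, where 1.99% of all genes did. RC3H1 passed that test with DESeq2 (adjusted p = 0.0436), without the filter (0.0332), without the second basal shNT library at 5% CO2 (0.0279) and without the first at 10% CO2 (0.0263). By edgeR at an unadjusted p under 0.05, 3 members and 14.2% of all genes fell under the threshold. The same test within single lines called 0 of 9 members and 0.0226%, 0% and 0% of all genes in shNT, shNR4A2 and shNR4A3 cells, and at an unadjusted p under 0.05 1, 1 and 1 members against 5.78%, 5.1% and 5.62%. DESeq2 also gave 0 within single lines.

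RC3H2 rose with 10% CO2 and LPS by 0.16 ± 0.05 (SE, adjusted p = 0.0108) averaged over lines, with shNT values of 57.6, 58.1 and 58.6 and 69.3, 65.3 and 66.6. ZC3H12A rose by 0.10 ± 0.03 (SE, adjusted p = 0.0253), 1.08-fold. Its libraries did not overlap in any of the 3 lines, but 2 of these separations were near ties. The highest 5% CO2 and lowest 10% CO2 libraries read 525.91 and 526.00 in shNT and 665.11 and 665.32 in shNR4A3 cells. In shNR4A2 cells they read 575 and 596. Of all genes 29.9%, 21.4% and 25.1% did not overlap with LPS in shNT, shNR4A2 and shNR4A3 cells. Without LPS the ZC3H12A averaged difference pointed down, -0.28 ± 0.13 (SE, adjusted p = 0.152), and passed only without the filter (adjusted p = 0.0315); the test of the LPS against the basal state gave 0.38 ± 0.14 (SE, adjusted p = 0.178). ZC3H12C, at 0.17 ± 0.10 (SE, adjusted p = 0.234) with LPS, did not pass. With the replicate block it passed (0.17 ± 0.04, adjusted p = 0.00438), although same-numbered libraries did not all deviate together there. ELAVL1 rose by 0.10 ± 0.03 (SE, adjusted p = 0.0216) and KHSRP fell by 0.12 ± 0.04 (adjusted p = 0.0152). The KHSRP call was lost without the first shNR4A3 library at 10% CO2 with LPS (adjusted p = 0.0545). Without LPS, KHSRP differed by -0.14 ± 0.05 (SE, adjusted p = 0.0607), and passed with DESeq2 (adjusted p = 0.0331), in the fit to all 36 libraries (0.0288) and without the third shNT library at 10% CO2 (0.041), the third shNR4A2 library at 5% CO2 (0.0343) or the second at 10% CO2 (0.023). With LPS, scaling by total count alone ended the ELAVL1 and ZC3H12A calls, dropping the filter ended those of ELAVL1, ZC3H12A and RC3H2, and the fit to all 36 libraries ended those of ZC3H12A and RC3H2.

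**Figure D3:**
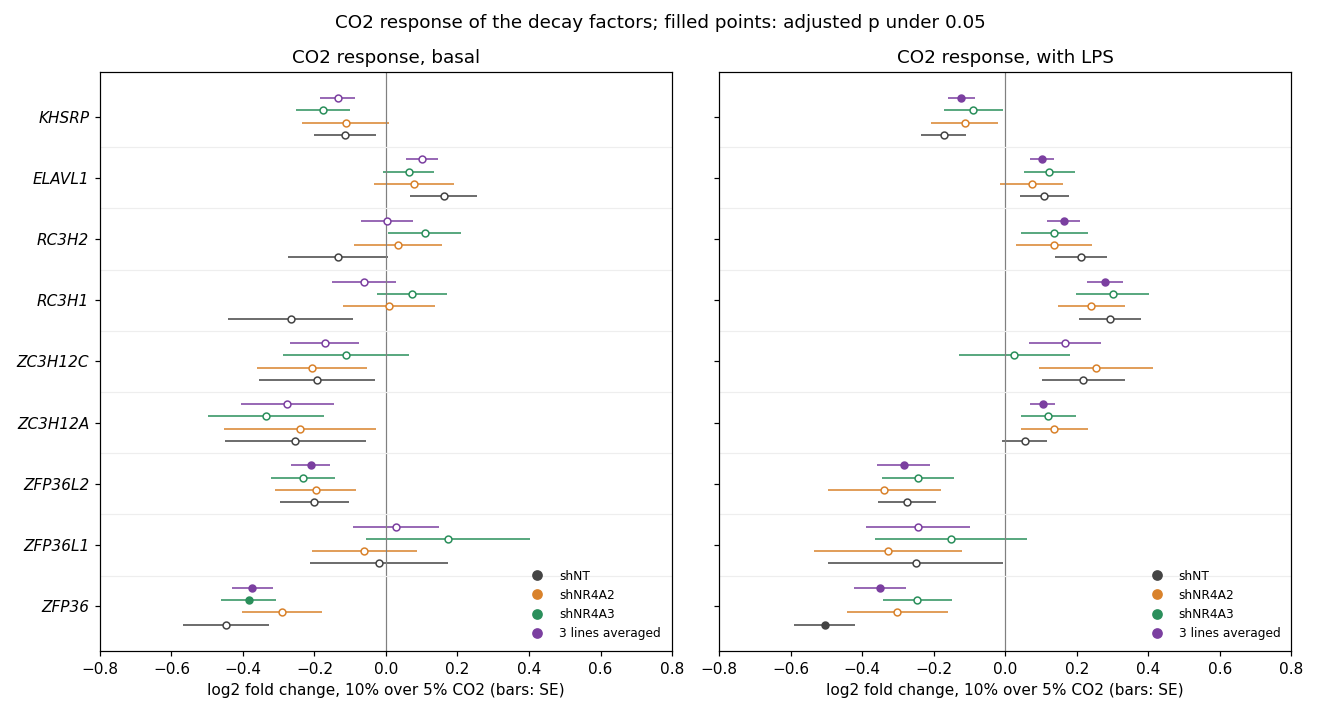
Log2 fold change at 10% against 5% CO2 (points, with SE bars) without (left) and with LPS (right) for each member in each line and averaged over the 3 lines; filled points passed an adjusted p under 0.05. ZFP36 and ZFP36L2 lie left of zero in every line and state, and RC3H1 lies right of zero in every line only with LPS.

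The CO2 responses of the members did not differ significantly between lines either. In the 4 tests of the CO2 response of a depleted line against that of shNT cells, 0 of 9 members and 0% of all genes passed. By edgeR at an unadjusted p under 0.05, 0 and 0 of the 9 fell under the threshold for shNR4A2 cells without and with LPS, and 0 and 0 for shNR4A3 cells, where 1.08%, 2.58%, 2.33% and 2.09% of all genes did. For ZFP36 the difference was 0.16 ± 0.16 and 0.22 ± 0.18 in shNR4A2 cells, and 0.06 ± 0.14 and 0.28 ± 0.13 in shNR4A3 cells. DESeq2 likewise called no member in these 4 tests. In simulated counts the test of shNR4A3 against shNT cells with LPS called 0% of 1.2-fold and 32% of 1.5-fold differences. Differences of that size could thus be missed.

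Among the other genes of the pathway, averaged over the 3 lines, called deadenylase genes were mostly lower at 10% CO2. Of 18 such genes 0 rose and 5 fell without LPS and 1 rose and 6 fell with LPS, with medians of -0.07 and -0.02. For these counts and those of the lists below, 17.9% of all tested genes passed without LPS and 30.8% with LPS. The largest changes were those of BTG2 (-0.61 ± 0.07), TOB1 (-0.46 ± 0.07) and PAN3 (-0.45 ± 0.06) without LPS, and of PAN3 (-0.46 ± 0.06), TOB1 (-0.44 ± 0.07) and PARN (-0.28 ± 0.06) with LPS. TOB1 is a further adaptor of CCR4-NOT, PAN3 is a subunit of the PAN2-PAN3 deadenylase and PARN is a poly(A)-specific ribonuclease. Of 15 exosome and SKI genes 5 rose and 2 fell without and 4 rose and 1 fell with LPS, among them SKIC3 (0.33 ± 0.07 and 0.31 ± 0.05), a scaffold of the SKI complex. Of 15 decapping and 5′-to-3′ decay genes 2 rose and 2 fell and 5 rose and 1 fell. Of 19 other AU-rich element and stem-loop binders 1 rose and 2 fell without and 5 rose and 3 fell with LPS, with ARID5A falling by 0.50 ± 0.11 and 0.82 ± 0.12. Of 20 regulators and partners 1 rose and 5 fell and 4 rose and 4 fell, and MALT1, the protease that cleaves Regnase-1 and Roquin, fell by 0.38 ± 0.11 and 0.57 ± 0.12.

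Of the 20 tested targets, 0 rose and 4 fell with hypercapnia in the basal state and 3 rose and 1 fell with LPS. Of all tested genes 17.9% and 30.8% passed in these averaged tests. Basal TNF fell by 0.99 ± 0.21 (adjusted p = 0.00354) and basal CXCL8 by 0.72 ± 0.15 (adjusted p = 0.00221) averaged over lines. TNF read 31.0, 31.7 and 20.9 at 5% and 14.8, 8.46 and 20.7 at 10% CO2 in basal shNT cells. With LPS neither passed: the averaged differences were -0.05 ± 0.05 for TNF and -0.13 ± 0.14 for CXCL8. IL1B (0.02 ± 0.12 and 0.09 ± 0.13), PTGS2 (-0.08 ± 0.15 and -0.02 ± 0.20) and NFKBIZ (-0.05 ± 0.08 and -0.06 ± 0.08) did not pass in either state. IL6, rare in all libraries, differed by 0.57 ± 0.26 (SE, adjusted p = 0.113) with LPS.

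Between lines in the same condition, ZFP36 passed as higher in 6 of 8 comparisons of a depleted line with shNT cells, and ZFP36L2 in 3 of 8. ZFP36 was higher in shNR4A3 cells in all 4 conditions and in shNR4A2 cells in both 10% CO2 conditions. Members called in shNR4A3 cells numbered 2, 1, 1 and 3 of 9 at 5% CO2, 5% CO2 with LPS, 10% CO2 and 10% CO2 with LPS, where 6.19%, 5.41%, 6.85% and 14.5% of all genes were called. In shNR4A2 cells the numbers were 0, 0, 1 and 3, against 5.69%, 6.21%, 7.95% and 18.9% of all genes. By edgeR at an unadjusted p under 0.05, 2 and 1 members fell under the threshold in the pair of shNR4A2 comparisons with no call, as did 20% and 21.4% of all genes. DESeq2 gave 0 there too, and the block raised those 2 counts to 4 and 3. Each line is 1 stable population, so the effect of the hairpin and other differences between the lines cannot be told apart.

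The clearest of these differences was ZFP36 in shNR4A3 cells at 10% CO2 with LPS, 166, 173 and 177 normalised CPM against 102, 110.2 and 105 in shNT cells. It came to 0.70 ± 0.07 (SE, adjusted p = 1.92e-05), 1.63-fold, and was called whichever 1 library was left out. In the other 3 conditions the shNR4A3 difference was 0.40 ± 0.10 (5% CO2, adjusted p = 0.0232), 0.44 ± 0.11 (5% CO2 with LPS, 0.0457) and 0.45 ± 0.10 (10% CO2, 0.0135). The shNR4A3 libraries lay above the shNT libraries in each, but the calls were lost in 5, 6 and 3 of 6 fits that left out 1 library (adjusted p 0.0541 to 0.113, 0.0547 to 0.146 and 0.0708 to 0.0988). The libraries concerned were all but the second shNT library at 5% CO2, all 6 at 5% CO2 with LPS, and shNT replicate 2 and shNR4A3 replicates 1 and 3 at 10% CO2. The call at 5% CO2 with LPS was also lost with library size only (adjusted p = 0.116). Libraries of these lines did not overlap for 24%, 25.7% and 23.8% of all genes in these 3 comparisons and for 33.2% at 10% CO2 with LPS.

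In shNR4A2 cells ZFP36 was higher by 0.39 ± 0.12 (SE, adjusted p = 0.0489) at 10% CO2 and by 0.32 ± 0.08 (SE, adjusted p = 0.0138) at 10% CO2 with LPS. These calls were lost in 5 and 4 of 6 fits that left out 1 library (adjusted p 0.0925 to 0.258 and 0.0517 to 0.0675), in the basal state for every library but the third shNT one, and with LPS for shNT replicates 1 and 3 and shNR4A2 replicates 2 and 3. In the fit to all 36 libraries the LPS call was also lost (adjusted p = 0.05035). At 5% CO2 the difference was 0.24 ± 0.11 (SE, adjusted p = 0.272) without LPS, or 0.24 ± 0.06, adjusted p = 0.0142 with the replicate block, and 0.12 ± 0.15 with LPS.

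ZFP36L2 was higher in basal shNR4A3 cells at 5% CO2, 629, 611 and 589.8 against 499.5, 452 and 467 normalised CPM, by 0.37 ± 0.08 (SE, adjusted p = 0.00982). It was also higher at 10% CO2 with LPS in shNR4A3 (0.31 ± 0.08, adjusted p = 0.0168) and shNR4A2 cells (0.27 ± 0.07, adjusted p = 0.0227). The basal call was lost without the second shNT library (adjusted p = 0.0598). The LPS calls were lost without the third shNT library (adjusted p = 0.105 and 0.12), without shNR4A3 replicate 1 or 3 (0.0516 and 0.06), and without shNR4A2 replicate 2 or 3 (0.0734 and 0.0718). In the fit to all 36 libraries the basal call (adjusted p = 0.06215) and the LPS calls in shNR4A3 (0.1003) and shNR4A2 cells (0.1313) were also lost. With the replicate block, ZFP36L2 also passed at 5% CO2 in shNR4A2 cells without LPS (0.19 ± 0.05, adjusted p = 0.0138) and with LPS (0.31 ± 0.07, adjusted p = 0.0011), and in shNR4A3 cells with LPS (0.27 ± 0.06, adjusted p = 0.0043). At 10% CO2 without LPS the shNR4A3 difference of 0.32 ± 0.10 (SE, adjusted p = 0.0759) passed without the filter (0.0281) and without the first shNT (0.0194) or second shNR4A3 library (0.0353). Without the filter the shNR4A2 difference at 5% CO2 with LPS passed too (0.0421).

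ZFP36L1 went in opposite directions in the point estimates, lower in both depleted lines with LPS and higher in basal shNR4A2 cells. With LPS it was lower in shNR4A3 cells, 16.1, 15.9 and 11.6 against 31.5, 22.2 and 15.6 at 5% CO2 and 15.2, 8.84 and 15.1 against 22.0, 17.2 and 18.7 at 10% CO2. Only the 10% CO2 libraries were free of overlap, and the differences of -0.67 ± 0.25 (SE, adjusted p = 0.176) and -0.57 ± 0.19 (SE, adjusted p = 0.0699) did not pass. At 5% CO2 with LPS the block gave -0.64 ± 0.11, adjusted p = 0.0013, DESeq2 gave an adjusted p of 0.0455, the fit without the filter gave 2.75e-05, and that without the third shNT library gave 0.033. At 10% CO2 with LPS DESeq2 gave 0.0256, library size only 0.0461 and no filter 0.000149. In basal shNR4A2 cells ZFP36L1 was above shNT by 0.51 ± 0.19 (SE, adjusted p = 0.141) at 5% CO2, with 0.53 ± 0.12, adjusted p = 0.0049 under the block and adjusted p values of 0.017 without the first shNT library and 0.038 without the filter. At 10% CO2 it was above by 0.46 ± 0.16 (SE, adjusted p = 0.0781), and it passed without the second shNR4A2 library (0.0278). With LPS the shNR4A2 means were below the shNT means, 20.4 against 23.1 normalised CPM at 5% and 16.3 against 19.3 at 10% CO2. The difference at 10% CO2 was -0.25 (adjusted p = 0.238). It passed with the block (-0.25 ± 0.10, adjusted p = 0.0331), although same-numbered libraries did not all deviate together there.

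ZC3H12A was higher in shNR4A3 than in shNT cells with LPS at 10% CO2, 691, 665 and 685 against 535, 562 and 526, by 0.33 ± 0.06 (SE, adjusted p = 0.00392). The call was kept in all 6 fits that left out 1 library but not in the fit to all 36 libraries. At 5% CO2 with LPS the difference was 0.26 ± 0.07 (SE, adjusted p = 0.0649), or 0.26 ± 0.06, adjusted p = 0.0075 with the block, an adjusted p of 0.0381 with DESeq2 and 0.0245 without the second shNR4A3 library. Without LPS it was 0.01 ± 0.18 at 5% and -0.08 ± 0.18 at 10% CO2. RC3H2 was lower in shNR4A2 cells, by 0.38 ± 0.09 at 10% CO2 with LPS (adjusted p = 0.00803), where it read 57.2, 51.7 and 46.6 against 69.3, 65.3 and 66.6. At 5% CO2 its difference was -0.34 ± 0.13 (SE, adjusted p = 0.149) without and -0.30 ± 0.09 (SE, adjusted p = 0.0848) with LPS, and both passed with the block (-0.33 ± 0.08, adjusted p = 0.0069, and -0.30 ± 0.08, adjusted p = 0.0021); the former also passed in the fit to all 36 libraries (adjusted p = 0.0472) and the latter without the second shNR4A2 library (0.0499). In shNR4A3 cells at 10% CO2 with LPS RC3H2 differed by -0.22 ± 0.08 (SE, adjusted p = 0.0928), and passed without the second shNR4A3 library (0.0468).

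ZC3H12C, RC3H1, ELAVL1 and KHSRP did not pass in any comparison of lines. For ZC3H12C the block at 5% CO2 with LPS gave 0.26 ± 0.07, adjusted p = 0.0023 in shNR4A2 cells. At 10% CO2 with LPS the shNR4A2 difference was 0.29 (adjusted p = 0.2375) and passed without the filter (0.0153). The block there gave 0.28 ± 0.06, adjusted p = 9.12e-05, in shNR4A2 and -0.16 ± 0.05, adjusted p = 0.0341, in shNR4A3 cells. Same-numbered libraries did not all deviate together in these comparisons at 10% CO2. RC3H1 in basal shNR4A3 cells at 10% CO2 differed by 0.24 ± 0.12 (SE, adjusted p = 0.298), and without the first shNT library the adjusted p was 0.00781. The differences of ELAVL1 ran from -0.13 ± 0.07 to 0.09 ± 0.08, and those of KHSRP from 0.03 ± 0.08 to 0.14 ± 0.07. Among the named targets, IL6 with LPS was higher in shNR4A2 cells at 5% CO2 (1.69 ± 0.36, adjusted p = 0.0215) and in both depleted lines at 10% CO2 (1.83 ± 0.34, adjusted p = 0.00501 in shNR4A2, 1.81 ± 0.42, adjusted p = 0.0264 in shNR4A3). The IL6 libraries behind these values held 15 to 199 counts each. TNF was lower in basal shNR4A3 cells at 5% CO2 (-1.02 ± 0.24, adjusted p = 0.0396), and IL1B with LPS at 10% CO2 was higher in shNR4A2 (0.51 ± 0.16, adjusted p = 0.0493) and shNR4A3 cells (0.46 ± 0.12, adjusted p = 0.0326).

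**Figure D4:**
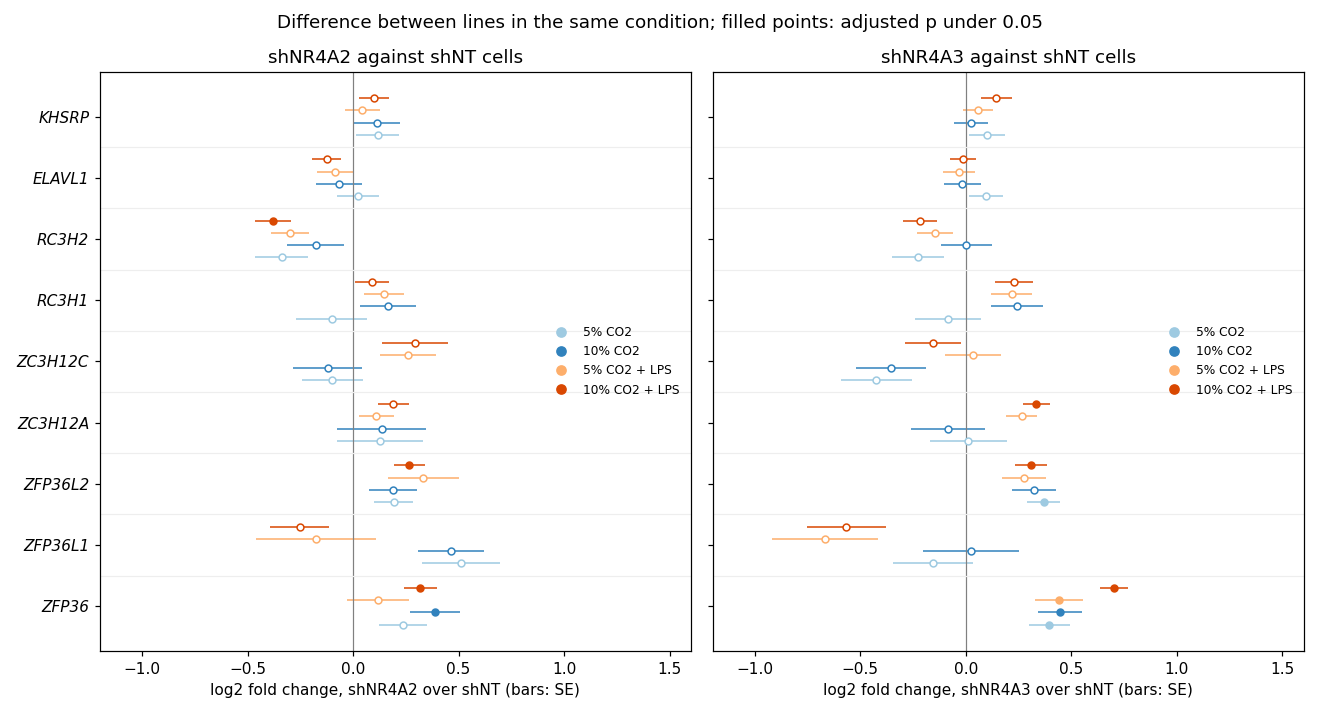
Log2 fold change of shNR4A2 (left) and shNR4A3 (right) over shNT cells for each member (points, with SE bars) in 4 conditions; filled points passed an adjusted p under 0.05. ZFP36 and ZFP36L2 lie right of zero in every condition of both lines, RC3H2 lies left of zero in every shNR4A2 condition, and the 4 estimates of ZFP36L1 spread to both sides.

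The genes whose log2 CPM followed a member most closely over the 12 condition means are given as a description, since those means share libraries with the contrasts above. For ZC3H12A they were CXCL1, SOCS3, TNFAIP3, PLEK and CD83, with Pearson correlations that all rounded to 0.999. CXCL1 is a neutrophil chemokine, SOCS3 an inhibitor of cytokine receptor signalling and TNFAIP3 (A20) an inhibitor of NF-κB signalling. For ZFP36L2, which fell with LPS, they were SH2B2, CCR2, C16orf54, SOWAHD and FRAT1 (0.992 to 0.995), among them CCR2, the monocyte receptor for CCL2. For ZFP36, whose pattern combines a rise with LPS, a fall with CO2 and a line difference, the closest were KLF2, ARHGAP31, MASTL, PLAU and C10orf55, at 0.971 to 0.977, led by the transcription factor gene KLF2. C10orf55 overlaps PLAU on the opposite strand in GENCODE v44. With the strand setting of the counting not given, whether reads of this pair were kept apart is not known.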

How the data were processed

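Polyadenylated RNA from 36 THP-1 libraries was sequenced as paired ends. Per the labels, the submitters' notes list Trimmomatic 0.36, STAR 2.5.2b, the GRCh38 build and featureCounts (Subread 1.5.2), and the values deposited by the authors are raw counts per gene. The annotation release and the strand setting of the counting are not given in the sources used here. Each library had its own file, and groups follow the sample labels.

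Here, edgeR 4.0.16 in R 4.3.3 was run on the counts as deposited. Genes were kept by filterByExpr over all 12 conditions (minimum count 10, minimum total 15), scaled by TMM, and tested with the quasi-likelihood F test in the libraries of each comparison alone, with Benjamini-Hochberg adjustment over 17720 genes. Standard errors were derived from the fold change and its F statistic. Tests of differences between responses used interaction terms. CPM values are TMM-normalised, and TPM served only to compare genes. The code was tested on simulated data with known changes. There 7.22% to 9.87% of calls at an adjusted p under 0.05 were false, more than that threshold aims at. Recovery of small changes was low within 1 line. For the CO2 response of shNT cells with LPS, 4% of 1.2-fold and 72% of 1.5-fold changes were called. For the CO2 response with LPS averaged over the 3 lines the shares were 60% and 100%. Recovery at 1.2-fold moved between simulated runs and is imprecise.

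The alternatives were DESeq2 1.42.0, RLE size factors, scaling by library size only, no filter, a fit to all 36 libraries, a replicate block, and leaving out each library. The labels number the replicates 1 to 3 without saying that a number marks a shared culture or day. Same-numbered libraries deviated together (every correlation above 0.1) in 7 comparisons, for example at 0.178 to 0.219 for basal shNR4A2 against shNT cells at 5% CO2, and for these the blocked value stands beside any result it changed. No 2 libraries of 1 group agreed within sampling noise (chi-square per degree of freedom 5.98 or more).

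The genes named were the 9 members, the pair of hairpin targets, 6 set target mRNAs, up to 3 called genes of each other list with the largest change, and the 5 genes most like ZFP36, ZC3H12A or ZFP36L2 over condition means. The members and lists were chosen with earlier results of these data known. The test of the CO2 response with LPS against basal was added after values were seen. AU-rich motifs were read from GRCh38 with GENCODE v44. One cell type marker is not reported here.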

Additional observations from a re-analysis of the deposited data

Results flagged for a closer look

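No member differed significantly between the LPS and basal states in its CO2 response, but 6 genes of the lists around them did in the test averaged over the 3 lines, by edgeR's quasi-likelihood test with Benjamini-Hochberg adjustment over all genes. Of all tested genes 1.99% passed that test. A positive value means a higher response to 10% CO2 with LPS than without, on the log2 scale. The difference was 0.69 for BTG2 (adjusted p = 0.000136), a CCR4-NOT adaptor, 0.40 for CELF1 (0.00999), an RNA-binding protein, 0.56 for TNIP1 (0.0248) and 0.93 for TNF (0.0257). It was -0.67 for ZC3H12D (0.0134), the Regnase-4 gene, and -0.37 for MAPK14 (0.0109), which encodes p38 alpha. For TNF the averaged CO2 response was -0.99 without LPS and -0.05 with LPS, and for BTG2 it was -0.61 and 0.07. The cause of these differences was not tested.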

How the results depend on the processing

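Values here are numbers of the 9 members that passed unless stated. Of the 56 calls of members, all 56 kept their direction and significance with RLE size factors and 55 with DESeq2; 49 did so with library size only, 52 with no filter and 47 in the fit to all 36 libraries. ELAVL1 in the LPS response of shNR4A3 cells at 10% CO2 turned to -0.0771 with library size only. With DESeq2 the CO2 response of shNT cells gave 1 without and 3 with LPS in place of 0 and 1, shNR4A3 against shNT cells at 5% CO2 with LPS gave 3 in place of 1, and the averaged CO2 response with LPS against basal gave 1 in place of 0. Library size only gave 3 for the CO2 response of shNT cells with LPS and 0 for shNR4A3 against shNT cells at 5% CO2 with LPS. The fit to all 36 libraries gave 1 for the basal CO2 response of shNT cells, 0 for that of shNR4A3 cells, 1 for each of shNR4A2 at 5% CO2 and shNR4A2 at 10% CO2 with LPS against shNT, and 1 for each of shNR4A3 at 5% CO2 and at 10% CO2 with LPS. No filter gave 4 in place of 7 for the averaged CO2 response with LPS, 3 and 1 for that of shNT cells with and without LPS, 1 for that of shNR4A2 cells with LPS, 1 for the test of LPS against basal, 1 and 1 for shNR4A2 against shNT cells at 5% CO2 without and with LPS, and 2 and 2 for shNR4A3 at 5% CO2 with LPS and 10% CO2. The cause was not tested.

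The replicate block kept all 56 calls. It gave 8 in place of 4 for the LPS response of shNT cells at 5% CO2, 2 for the CO2 response of shNT cells with LPS, 1 and 2 for the basal CO2 response of shNR4A2 and shNR4A3 cells, and 1 for the LPS response of shNR4A2 against shNT cells at 10% CO2. For shNR4A2 against shNT cells it gave 4, 3, 2 and 6 at 5% CO2, 5% CO2 with LPS, 10% CO2 and 10% CO2 with LPS, and for shNR4A3 4, 2 and 7 in the last 3 of these. Where correlations of same-numbered libraries did not all pass 0.1, whether they share a culture or day is not known. For the averaged CO2 response with LPS, for example, these correlations ran from -0.167 to 0.401.

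Leaving out 1 library kept 402 of 444 calls. The numbers of members ran from 0 to 1 for the basal CO2 response of shNT and of shNR4A3 cells, 1 to 3 for that of shNT cells with LPS and 0 to 1 for the averaged test of LPS against basal. They ran from 0 to 1, 0 to 1, 0 to 1 and 1 to 3 for shNR4A2 against shNT cells in the order above, and 1 to 1, 0 to 1 and 0 to 3 for shNR4A3 in the first 3 conditions. With 3 libraries a condition, differences of the size seen with CO2 (0.10 to 0.37 on the log2 scale, averaged) were mostly not called within 1 line.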

Other observations

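Among the listed targets outside the 6 set for naming, some cytokine mRNAs moved with hypercapnia in the LPS state, and these genes were picked after their values were seen. Averaged over the 3 lines, IL12B and IL23A, which encode subunits of interleukin-12 and interleukin-23, rose by 0.82 ± 0.16 (SE, adjusted p = 0.00119) and 0.82 ± 0.16 (SE, adjusted p = 0.00149) on the log2 scale at 10% against 5% CO2. CCL4, a chemokine, rose by 0.31 ± 0.11 (SE, adjusted p = 0.0379), and LIF fell by 0.31 ± 0.09 (adjusted p = 0.0159). Without LPS none of these 4 passed. In the RNA exosome, EXOSC2 and EXOSC3 rose by 0.24 ± 0.05 and 0.24 ± 0.05 without LPS and by 0.21 ± 0.04 and 0.24 ± 0.05 with it. EXOSC4 rose by 0.26 ± 0.05 without LPS and differed by -0.04 ± 0.06 with LPS.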
